A study of Mus musculus with 14 samples.

Results

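The miR-130/miR-301 family comprises the hairpins mmu-mir-130a, mmu-mir-130b, mmu-mir-301a and mmu-mir-301b of the mouse, whose mature 3p arms carry a common seed. The members were chosen by name, as the rows so named in the authors' deposited table, and they are 4 of its 539 rows. The table compares microRNAs (miRNAs) in exosomes, small vesicles that carry RNA between cells, released by CD11b+F4/80+ adipose tissue macrophages (ATMs) of C57BL/6 mice. The obese group holds 7 libraries and the lean group 7 libraries. In both groups the cells were held for 72 h in IMDM medium with 10% serum freed of exosomes, and vesicles were pelleted from that medium by ultracentrifugation. The labels do not say how obesity was brought about, whether animals were pooled, or whether each library came from its own animal, so the spread behind the p-values is that of these libraries and may be technical. Every age label is a range that starts at 24 weeks, with an upper end that steps by 1 week per library in order of listing, from 26 to 32 weeks over the obese libraries and from 33 to 39 weeks over the lean libraries. The ranges overlap, so they do not show whether the groups differed in age, and the labels were not used.

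A miRNA represses messenger RNAs that pair with its seed, bases 2 to 8 from its 5′ end, and miRNAs with a common seed can act on the same messages. The miR-130/miR-301 family is known for repressing Pparg, which encodes the nuclear receptor PPARγ that drives adipocyte differentiation and restrains inflammatory genes in macrophages. In human cells miR-130 lowers PPARG and adipocyte formation, and human miR-301a has been placed in a feedback loop with NF-κB, the driver of inflammatory transcription. The table gives a hairpin a single row, so reads of the 5p and 3p arms cannot be told apart.

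The mature arms below, from RefSeq on GRCm38.p6 in the 5′ to 3′ direction, show what the members share, with bases 2 to 8 in capitals. All 4 hairpins and 7 mature arms were matched. For mir-301b the whole hairpin is shown, with the family's seed letters in capitals.
miR-130a-3p: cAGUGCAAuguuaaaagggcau
miR-130b-3p: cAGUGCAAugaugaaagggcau
miR-301a-3p: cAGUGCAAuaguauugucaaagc
miR-130a-5p: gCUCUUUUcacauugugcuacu
miR-130b-5p: aCUCUUUCccuguugcacuacu
miR-301a-5p: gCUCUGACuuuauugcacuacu
miR-301b-5p: gCUCUGACuagguugcacuacu
mir-301b hairpin: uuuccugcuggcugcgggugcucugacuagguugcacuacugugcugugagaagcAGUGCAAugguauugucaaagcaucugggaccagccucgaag

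The 3p arms shown begin with the same 9 bases and then divide into a miR-130 type and a miR-301 type. Placed without gaps in the hairpin of mir-130b, miR-130a-3p differed at 2 of its 22 bases, U11A and A13G, counted from the arm's 5′ end with the arm's base first. In the hairpin of mir-301b, miR-301a-3p differed at 1 of its 23 bases, A10G. Placed in the hairpins of the other type, the 3p arms differed at 9 to 11 bases. The 5p arms of the miR-301 type share bases 2 to 8, whereas those of miR-130a-5p and miR-130b-5p differ from each other and from the miR-301 type. Within the 3p arm, bases 10, 11 and 13 are thus those that separate the nearest relatives, and how reads with mismatches were assigned is not stated in the sources used here. None of the 4 hairpins shares a stretch of 20 bases, on either strand, with a transcript of another gene outside miRNAs in GENCODE M21.

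The members lie at 3 places in the mouse genome (GRCm38, GENCODE M21). The hairpins mir-130b and mir-301b are neighbours on the minus strand of chromosome 16, at bases 17124061 to 17124142 and 17124400 to 17124496, with 257 bases between them. Both lie within an intron of the protein-coding gene 2610318N02Rik, which is transcribed from the same strand. The hairpin mir-301a is at bases 87113004 to 87113089 of chromosome 11, on the plus strand, in an intron of Ska2, which encodes a component of the kinetochore and runs in the same direction. The hairpin mir-130a, at bases 84741115 to 84741178 of the minus strand of chromosome 2, overlaps no other annotated gene.

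Among the RefSeq sequences used, 7 mature miRNAs carry AGUGCAA at bases 2 to 8. The 3p arm of mir-301b has no entry there and is not in this count, although its hairpin holds these letters. Those of mir-130a, mir-130b and mir-301a belong to the members, and mir-130c, mir-721, mir-6341 and mir-6389 were not analysed here. The match to this seed in a message is TTGCACT, searched on the message's own strand. The annotated 3′ untranslated region of Pparg (transcript ENSMUST00000171644.7, 204 bases) holds 1 such match, at bases 115490237 to 115490243 of the plus strand of chromosome 6, followed by the A that makes it a match of 8 letters. It is shown, with the 7 letters in capitals, since Pparg is the message the family is known for.
Pparg site: tgttccttctattgaTTGCACTattatttt
Of 1379 genes whose 3′ untranslated region is 80% to 120% as long, 1.16% hold a match, and over 21810 protein-coding genes the share is 9.61%. Among other messages that have been studied as targets of the family, mostly in other systems, that of Abca1, whose protein exports cholesterol, held 2 matches in this region, where 19.2% of genes of like length hold at least 1. The transcription regulators Zfpm2 and Meox2 held 2 each, where the shares are 7.62% and 8.93%. The message of Csf1, the growth factor of macrophages, held 3 (share 13.1%), and that of the inflammatory cytokine Tnf held 1 (share 6.96%). The region of Ppargc1a, a coactivator of PPARγ, held 0 in its 3930 bases, where 24.0% of genes of like length hold a match. A match is a feature of the sequence alone, and the levels of these messages were not measured in this study.

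Whether a positive fold change means more in the obese or in the lean group is not stated in the file, and the signs below are those deposited. The published study of such exosomes, which is not among these data, found more miR-155 with obesity, and the sign of mir-155 in the authors' deposited table is positive. If that holds here, positive means higher in obese than in lean ATM exosomes. No value of any single library was analysed here, so each hairpin is described by its mean log2 expression over both groups, its log2 fold change and the error of that fold change.

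The 4 members were carried at very different levels. The authors' deposited table lists mir-130b at a mean log2 expression of 10.26, mir-301a at 8.06, mir-301b at 7.63 and mir-130a at 3.06. By this measure mir-130b was the 58th most abundant of 539 hairpins, above 89.2% of the rows, and mir-130a was the 242nd. The levels of mir-301a and mir-301b, the 118th and 126th, were 0.42 apart on the log2 scale. From mir-130b to mir-130a the distance was 7.20 on the log2 scale (148-fold), although their 3p arms differ at 2 bases. Within the chromosome 16 pair, mir-130b lay 2.63 above mir-301b on the log2 scale (6.18-fold). The mature arms differ in length by at most 1 base, and the spread of a level over libraries is not in the table, so no order among these levels was tested. The median over the 4 members was 7.84, against 2.34 over all 539 rows of the authors' deposited table.

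No member of the family passed the test between obese and lean ATM exosomes. By an adjusted p under 0.05, 0 of 4 members were called in the authors' deposited table, where 5.57% of all rows did (limma, Benjamini-Hochberg adjustment over 539 rows). On the positive side that share was 2.04% of all rows, and on the negative side 3.53%. At an unadjusted p under 0.05 the count was also 0 of 4, against 17.6% of all rows (8.53% positive and 9.09% negative) in the authors' deposited table. Log2 fold changes were positive for 3 of 4 members, with a median of 0.40, while 52.7% of all rows were positive, with a median of 0.09. Among the 40 rows nearest to a member in mean expression, 20 on each side, 33 were positive around mir-130b (median 0.47), 24 around mir-301a (median 0.13), 24 around mir-301b (median 0.17) and 20 around mir-130a (median −0.056). With so few members, neither count separates the family from the rest of the table. A miRNA carried by fewer vesicles and one with fewer copies per vesicle cannot be told apart in such libraries.

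The most abundant member, mmu-mir-130b, which has been described as a circulating marker of obesity in people, had the smallest p of the family. The authors' deposited table gives it a log2 fold change of 0.77 (1.70-fold), an unadjusted p of 0.0995 and a limma adjusted p of 0.394. Dividing the fold change by t gives a standard error of 0.44, and the 95% interval runs from −0.16 to 1.70, that is from 0.894-fold to 3.25-fold. As deposited, the interval includes no difference and leaves out ratios above 3.25 and under 0.894. With every fold change lowered by 0.34, so that the 180 most abundant rows have a median of 0, the value was 0.43. A t-test recomputed here with the same standard error gave a Benjamini-Hochberg adjusted p of 0.714. Both log2 bounds of the interval move down by the same 0.34, so the ratios left out depend on the centring.

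Its neighbour mmu-mir-301b had a log2 fold change of 0.037 in the authors' deposited table (limma, adjusted p = 0.987). The standard error was 1.21, and the 95% interval ran from −2.51 to 2.59. Its sign turned after recentring, to −0.055 when all rows were set to a median of 0 and to −0.30 when the 180 most abundant rows were. The fold changes of the chromosome 16 pair were 0.73 apart on the log2 scale, less than the standard error of mir-301b alone. That difference was not tested, since both values come from the same libraries and their covariance is not in the table.

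The other member of the miR-301 type, mmu-mir-301a, was the 1 negative member. The authors' deposited table gives it a log2 fold change of −0.64 (a 1.56-fold difference), an unadjusted p of 0.662 and a limma adjusted p of 0.901. The 95% interval ran from −3.65 to 2.38, with a standard error of 1.43. A difference of several-fold in either direction therefore remains inside the interval for both members of the miR-301 type.

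The least abundant member, mmu-mir-130a, had the largest fold change of the family. By the authors' deposited table it stood at 2.10 on the log2 scale (4.29-fold), its unadjusted p was 0.151 and its limma adjusted p 0.472. Its standard error was 1.40, and the 95% interval ran from −0.84 to 5.04, or from 0.559-fold to 32.9-fold. The largest point estimate of the family thus went with an interval that includes no difference.

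**Figure D1:**
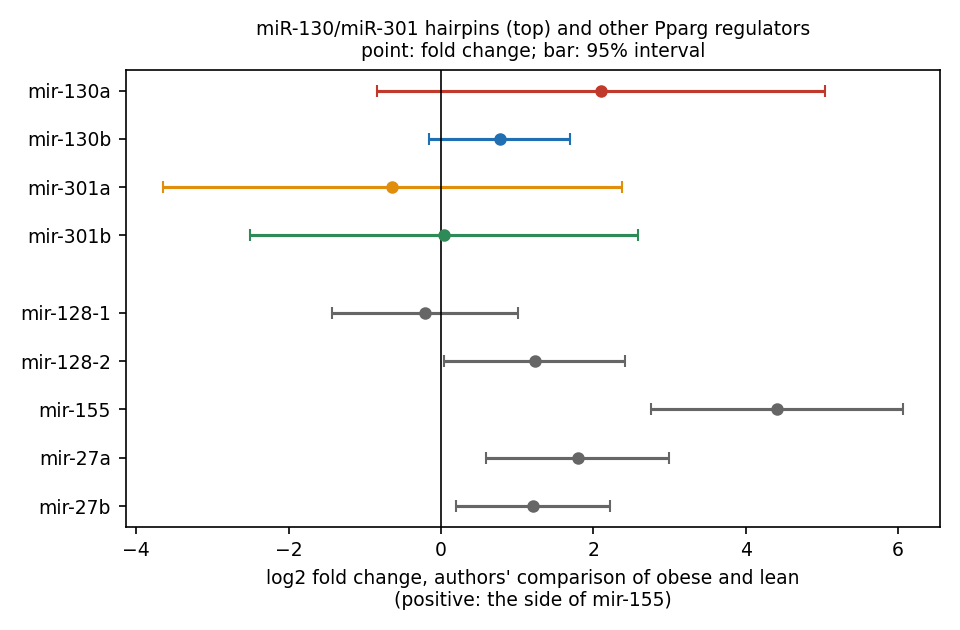
Log2 fold change (horizontal axis, positive on the side of mir-155) of each miR-130/miR-301 hairpin and, below, of the other Pparg regulators. Points are the values of the authors' deposited table and bars their 95% intervals. The bars of all 4 members cross 0, and that of mir-130b, from −0.16 to 1.70, is the narrowest of the family.

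The members also differed in how precisely they were measured. The standard error of mir-130b, 0.44, was the 7th smallest of all 539 rows, while that of mir-301b ranked 393rd, that of mir-130a 476th and that of mir-301a 482nd from the smallest. Errors tended to be smaller in more abundant rows, as the plot of error against mean expression shows, so each member was set beside the same 40 rows nearest to it in mean log2 expression. Of the 40 rows around mir-130b, 2 had a smaller error, and the median error of the 40 was 0.65. For mir-301a, 37 of 40 had a smaller error than its own, and their median was 0.77, so that its error was 1.86 times that of rows of like abundance. For mir-301b the count was 33 of 40, with a median of 0.83 and a ratio of 1.47. For mir-130a it was 36 of 40, with a median of 1.11 and a ratio of 1.26. The neighbours mir-130b and mir-301b thus stood on opposite sides of the rows that match them in abundance.

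**Figure D2:**
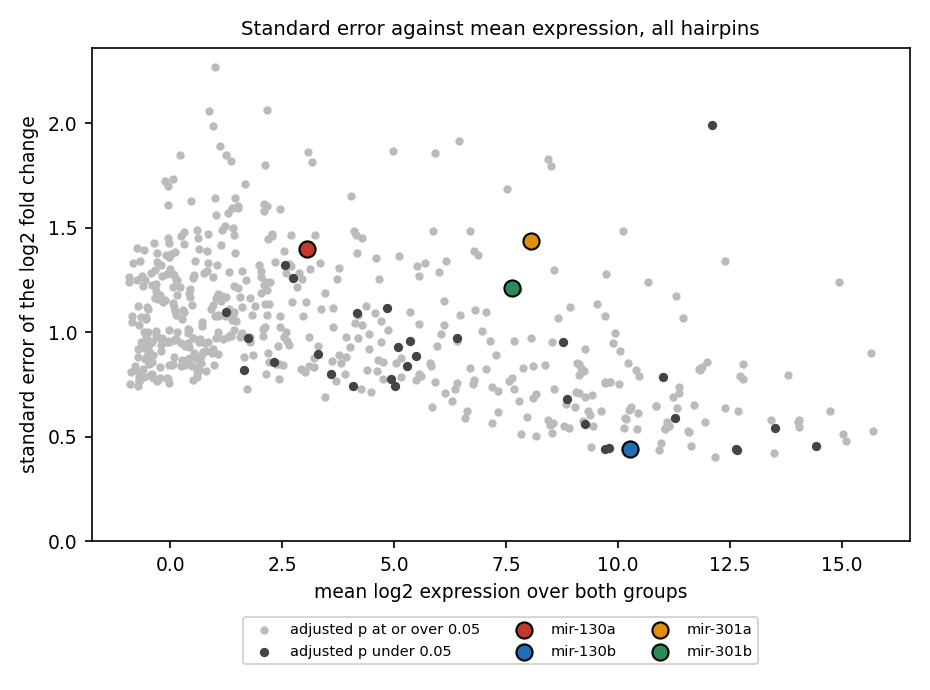
Standard error of the log2 fold change (vertical axis) against mean log2 expression over both groups (horizontal axis) for all 539 hairpins. The point of mir-130b lies at the lower edge of the rows, at 0.44, and those of mir-301a and mir-301b lie at 1.43 and 1.21, above most rows of like abundance.

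If the authors' fit gave all libraries equal weight, a standard error converts to a spread within groups. That standard deviation, which limma draws toward the values of other rows, would be 0.83 for mir-130b, 2.27 for mir-301b, 2.62 for mir-130a and 2.68 for mir-301a on the log2 scale. The smallest absolute t called in the authors' deposited table was 3.53. At its own error, mir-130b would reach that t with an observed log2 fold change of 1.56 (2.96-fold). The corresponding observed values were 4.29 (19.5-fold) for mir-301b, 4.94 (30.7-fold) for mir-130a and 5.06 (33.5-fold) for mir-301a. These are sizes of an observed estimate at the errors found here, not limits on a true difference.

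The rows nearest to each member in fold change and mean expression, each axis divided by its SD over all rows, were as follows in the authors' deposited table. Beside mir-130b lay mir-1198 (0.85) and mir-532 (0.87), and beside mir-130a lay mir-1947 (2.15) and mir-184 (1.91), the numbers being log2 fold changes. Beside mir-301a lay mir-3473c (−0.71) and mir-127 (−0.60), and beside mir-301b lay mir-378d (0.19) and mir-6516 (−0.020), with log2 fold changes again from the authors' deposited table. None of these 8 rows passed the test, and the likeness rests on 2 summary values per row, not on a pattern over libraries.

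**Figure D3:**
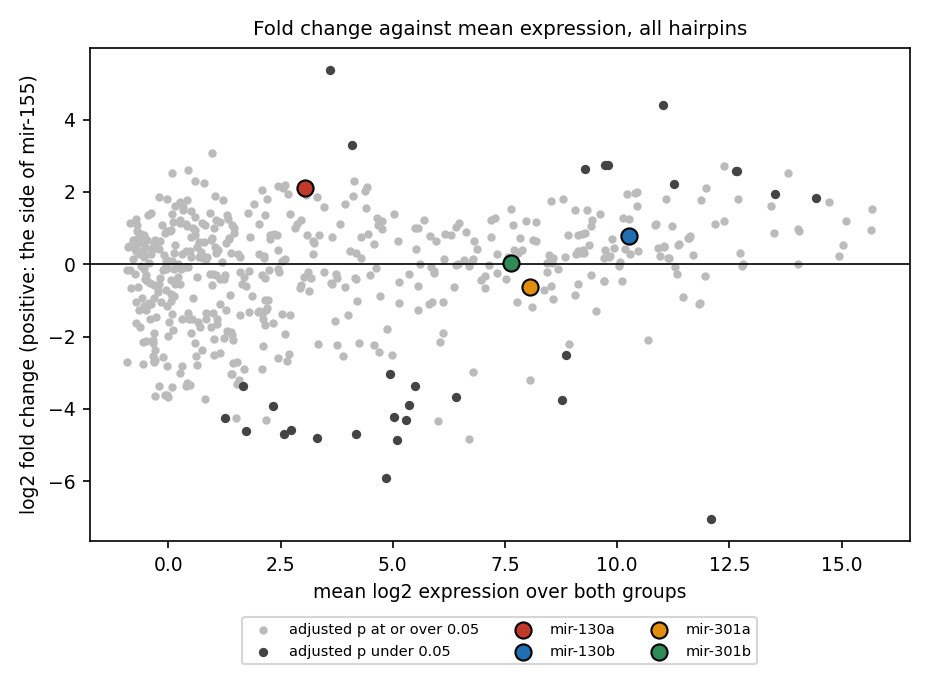
Log2 fold change (vertical axis, positive on the side of mir-155) against mean log2 expression over both groups (horizontal axis) for all 539 hairpins. Dark points have an adjusted p under 0.05 in the authors' deposited table, and the 4 members, from 3.06 to 10.26 in mean expression, lie among the pale points.

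The family was set beside other miRNAs known to repress Pparg or the factors that act with it. Of the list's 6 hairpins mir-27a, mir-27b, mir-128-1, mir-128-2 and mir-155 were analysed, and mir-540 was not analysed here. On the positive side 1 of 5 passed in the authors' deposited table, against 2.04% of all rows, and on the negative side 0, against 3.53%. At an unadjusted p under 0.05 (limma) the count was 4 of 5, mir-155 among them, against 17.6% of all rows. The median log2 fold change was 1.23, against 0.09 over all rows and 0.34 over the 180 most abundant, and 0.89 after recentring by 0.34. The call was mir-155, a miRNA induced by inflammatory stimuli in macrophages, at 4.41 (limma, adjusted p = 0.00205), and its own direction is no evidence because the sign of the table was read from it. For the miR-27 hairpins, known repressors of Pparg in adipocyte precursors, the authors' deposited table lists 1.80 for mir-27a (limma, adjusted p = 0.0740) and 1.21 for mir-27b (limma, adjusted p = 0.168). It lists 1.23 for mir-128-2 (limma, adjusted p = 0.258) and −0.21 for mir-128-1 (limma, adjusted p = 0.918), again by the authors' deposited table. The 95% intervals of mir-27a and mir-130b overlap, and no difference between the family and these hairpins was tested.

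Of 18 hairpins linked to adipocyte differentiation, 1 passed on the positive side, against 2.04% of all rows, and 0 on the negative side, against 3.53%, in the authors' deposited table. The median log2 fold change of the list was 0.84, or 0.99 with 1 hairpin per miRNA stem, against 0.09 over all rows. The hairpin that passed was mir-222, which represses the cell cycle inhibitor Cdkn1b, at 1.82 (limma, adjusted p = 0.0240). Its neighbour mir-221 was at 1.72 (limma, adjusted p = 0.123), both in the authors' deposited table. After recentring by 0.34, none of the 18 passed and their median was 0.50. Of 5 hairpins linked to cholesterol transport, none passed in either direction in the authors' deposited table (limma), with 1 of 5 at an unadjusted p under 0.05, against 17.6% of all rows. The median of this list was 0.42, or 0.082 after recentring by 0.34 and 0.10 with 1 hairpin per miRNA stem. The 2 of smallest p were mir-128-2 and, at 1.11 (limma, adjusted p = 0.714) in the authors' deposited table, mir-33, which represses Abca1.

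The miR-148/152 miRNAs share 6 of the seed's letters with the family, shifted by 1 base, as their bases 2 to 8 read CAGUGCA. In the authors' deposited table mir-148b was at 1.96 (limma, adjusted p = 0.196), mir-148a at 0.42 (limma, adjusted p = 0.929) and mir-152 at −0.24 (limma, adjusted p = 0.929), so none of them passed either. The letters AGUGCA also stand near the start of miR-350-5p, whose hairpin mir-350 was at 1.14 (limma, adjusted p = 0.629) in the authors' deposited table.

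Markers of myeloid cells were present, with mean log2 expression of 4.17 to 11.32 over 4 of 4 hairpins in the authors' deposited table, among them mir-223 at 7.62 and mir-142a at 9.70. Markers of other cells were also listed, at 3.24 to 12.66 for 3 lymphocyte, 4.15 to 11.81 for 3 erythroid, 0.22 to 6.59 for 5 mesenchymal, 0.97 to 14.04 for 4 adipocyte and 0.60 to 3.62 for 5 epithelial hairpins, and 6.46 for the endothelial mir-126a, in the authors' deposited table. Of all these markers, both copies of the lymphocyte-linked mir-181a passed on the positive side, where 2.04% of all rows did. The remaining lymphocyte hairpin, mir-150, was at 0.59 (limma, adjusted p = 0.910). The myeloid mir-511 and the adipocyte-linked mir-365-2 passed on the negative side, where 3.53% of all rows did. Of the other myeloid hairpins, mir-223 was at 1.54, mir-342 at −0.26 and mir-142a at −0.46 in log2 fold change by the authors' deposited table. Of the other adipocyte hairpins, mir-365-1 was at 0.98, mir-378a at 0.022 and mir-193b at −0.56, and none of these passed. Of the 5 epithelial hairpins 3 had an unadjusted p under 0.05 in the authors' deposited table (limma), against 17.6% of all rows, and none passed. The list median was 2.11, against 0.09 over all rows, while mir-200a was at 0.068 and mir-141 at −0.51. The part of other cell types in the values of the miR-130/miR-301 hairpins was not tested.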

How the data were processed

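Small RNA from exosomes of obese and lean ATMs was sequenced in 7 libraries each. Per the submitters' processing notes, the tools were Trimmomatic 0.30, Novoalign, FastQC, MultiQC, limma and edgeR, and no step is tied to any of them. The build, annotation and scaling used upstream, and how reads matching several hairpins were treated, are not stated in the sources used here.

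Per the file headers, the authors' deposited table holds for each hairpin the fold change and the mean expression, both log2, a moderated t score, unadjusted and adjusted p-values, and B, a natural log of odds. It holds 0 columns of values per library, so depth is unknown, no counting interval is given, and no model was refitted.

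Here 17.91 total degrees of freedom were recovered from t and p, standard errors were taken as fold change over t, and 95% intervals were computed (Python 3.11.15, scipy 1.17.1). The recovery was tested on data simulated with limma 3.58.1. Adjusting the unadjusted p over 539 rows by Benjamini-Hochberg returned the deposited adjusted p to within 1.46e-14. A hairpin with an adjusted p under 0.05 is called. Sequences are from RefSeq (GRCm38.p6) and annotation from GENCODE M21 (GRCm38), and seed matches were counted in the transcript of each gene with the longest annotated 3′ untranslated region.

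The members and lists were chosen with earlier results of these data known. The naming rule takes every member, rows with the members' seed, all Pparg regulators, the called rows and the 2 of smallest p of the other lists, and the 2 rows nearest to each member; the rows with 6 seed letters and the markers named beyond it were chosen after their values were seen. The result for 1 further message is not reported here.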

Additional observations from a re-analysis of the deposited data

How the results depend on the processing

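Under 2 recentrings of the fold changes, the count of members called was 0 of 4, as it was as deposited. At an adjusted p under 0.1 and at an unadjusted p under 0.05 it was also 0. Adjustment over the 270 rows at or above the median mean expression, Benjamini-Yekutieli adjustment and a 2-fold minimum gave 0 as well. These last settings could not add a call, since no member was called as deposited and their smallest unadjusted p (limma) was 0.0995. They are therefore no check on the result. The sign changed for mir-301b alone, from 0.037 to −0.055 when recentred by the median of all rows (0.09) and to −0.30 when recentred by that of the 180 most abundant rows (0.34), which follows from the subtraction. Over the same recentrings mir-130a was at 2.01 and 1.76, mir-130b at 0.68 and 0.43, and mir-301a at −0.73 and −0.98. The count called in the adipocyte differentiation list was 0 after recentring by 0.34, against 1 as deposited. Over all rows, 7 positive and 6 negative hairpins were called with Benjamini-Yekutieli adjustment, against 11 and 19 as deposited, and 8 and 25 after recentring by 0.34. No paired analysis was possible because single libraries have no values here, so the replicate block was not run. Depth per library is unknown, and what it limits was not tested.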
